A study of Homo sapiens with 3 samples.

Results

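Among cells of human embryonic stem cell micropatterns treated with the GSK3 inhibitor CHIR99021, 894 of 7084 kept cells (12.6%) carried high combined levels of DDIT4, CHAC1 and SESN2. These stress-high cells were chosen by measured values: the UMIs of the 3 genes, summed, had to reach 700 CPM, that is 700 of every 1000000 UMIs of the cell. A UMI is a molecular barcode that marks 1 captured RNA molecule. The whole series held 23361 kept cells. Stress-high cells were compared with the 2822 CHIR cells under 200 CPM, called low cells here, and the 3368 cells between are called intermediate cells. The stress-high cells are a range of a per-cell score and not a separate cell type. STC2, a marker named with these cells but not used by the rule, is described beside them. The cells were chosen with earlier results of these data known, so STC2 is no independent check of the label.

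The study grew micropatterned colonies of HES3 Mixl1:GFP cells, a reporter line of the established human embryonic stem cell line HES3, and counted RNA in single cells by 10x Genomics capture. All colonies were seeded with 10 µM of Y-27632 and treated after 24 h for a further 48 h. BMP4 colonies were given BMP4 at 50 ng/mL, CHIR colonies CHIR99021 at 6 µM, and CHIR+Activin colonies CHIR99021 at 3 µM and Activin A at 100 ng/mL. About 10 micropatterns of this 1 line were pooled into a single library for each treatment, aimed at 10000 cells. Cells of 1 library are not replicates of a treatment, so no test was made and no p-value is given. Library and treatment cannot be told apart, and all intervals below are exact 95% intervals that cover counting error only.

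Kept cells numbered 9401 in BMP4, 7084 in CHIR and 6876 in CHIR+Activin, with 137174566, 185215378 and 130592423 UMIs. Median UMIs per cell were 12623, 22919.5 and 17202 in the same order. Between 8 and 12 barcodes were shared by each pair of libraries, at most 0.175% of the smaller one. Levels are given in CPM, which is a gene's UMIs summed over a group of cells, divided by all UMIs of that group and multiplied by 1000000; for a single cell it is the same quantity over that cell's UMIs.

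The integrated stress response is a pathway in which kinases that sense amino acid shortage, unfolded protein, viral RNA or haem deficiency phosphorylate the initiation factor eIF2, which lowers general translation and favours that of the transcription factor ATF4. ATF4, with DDIT3 (also called CHOP) and ATF3, drives genes for amino acid synthesis and uptake, tRNA charging and feedback on the pathway. DDIT4 and SESN2 restrain the growth kinase complex mTORC1, and CHAC1 breaks down glutathione. DDIT4 is also induced through the hypoxia-inducible factors, glucocorticoids and p53, so that its level alone does not name a single pathway.

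DDIT4 made up most of what the rule counted. It gave 80.2% of the rule's UMIs in stress-high cells, against 11.3% from SESN2 and 8.55% from CHAC1. DDIT4 stood at 773 CPM in stress-high cells, 289 in intermediate cells and 51.9 in low cells. CHAC1 stood at 82.3, 43.2 and 10.4 CPM in the same groups. SESN2 stood at 108, 66.2 and 21.1 CPM. Because these values chose the cells, their order is a description. Over single stress-high cells DDIT4 ran from 506 CPM at the 10th percentile through a median of 741 to 1142 at the 90th. All 894 stress-high cells had a DDIT4 UMI, 670 had a CHAC1 UMI and 736 had an SESN2 UMI. All 3 genes were seen together in 584 stress-high cells (65.3%) and in 211 low cells (7.48%), and 72 stress-high cells had DDIT4 alone. The median stress-high cell had 19 UMIs of the 3 genes and the lowest had 3.

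The score had no gap at the cutoff. The lowest stress-high cells had scores of 700.280, 700.703 and 700.898 CPM, and the highest cells under the cutoff had 699.943, 699.899 and 699.423. Between 630 and 770 CPM lay 435 cells, 174 of them stress-high, and 336 stress-high cells were at or above 1000. The median score was 903 CPM in stress-high cells and 72.8 in low cells.

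**Figure D1:**
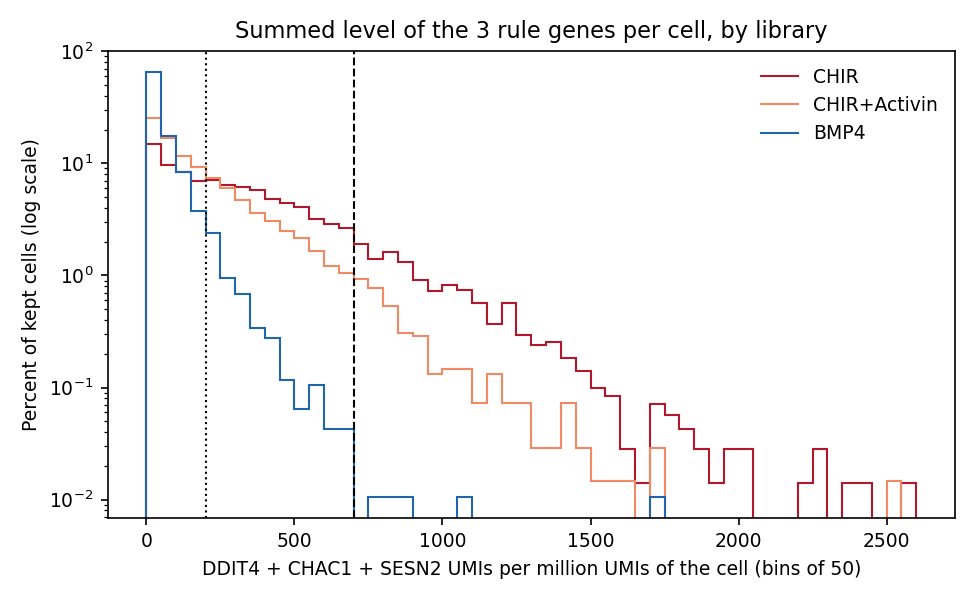
Share of kept cells (percent, log axis) in each bin of 50 of the summed DDIT4, CHAC1 and SESN2 level (CPM of the cell), for the 3 libraries. The dotted line marks 200 and the dashed line 700 CPM. CHIR cells reach further to the right than CHIR+Activin cells, and 5 BMP4 cells lie above 700.

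Across the 3 treatments the share of cells passing the same rule was highest in CHIR. It was 12.6% (11.9 to 13.4) in CHIR, 3.85% (3.41 to 4.34) in CHIR+Activin and 0.0532% (0.0173 to 0.124) in BMP4, which is 894, 265 and 5 cells. The median score over all kept cells was 276 CPM in CHIR, 134 in CHIR+Activin and 0 in BMP4. With every cell thinned to 10000 UMIs, which left out 192, 333 and 2360 shallower cells, the shares were 16.7%, 5.62% and 0.0568%. The order of the libraries was the same at both depths. Over whole libraries DDIT4 was at 240 CPM in CHIR, 141 in CHIR+Activin and 29.9 in BMP4. STC2, which encodes a secreted glycoprotein induced by ATF4, was at 65.1, 48.4 and 18.6 CPM in the same order.

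Promoter sequences are shown for genes whose levels the results turn on and whose promoters hold 1 of 2 short motifs. The motifs are known from the integrated stress response and from the hypoxia-inducible factors. Whether either pathway acts on these genes here was not tested. TGATGNAA, which reads TTNCATCA on the other strand, is the core of the C/EBP-ATF response element. ACGTG, which reads CACGT on the other strand, is the core of the hypoxia response element. RefSeq promoters of assembly GRCh38.p14, 250 bases before to 50 after the gene start, were searched on both strands. Capitals mark the motif, and where the 2 orientations of ACGTG overlap the capitals cover both. The first 4 sequences belong to DDIT4 (chr10:72273779-72273823, + strand), CHAC1 (chr15:40953242-40953289, + strand), ATF3 (chr1:212565196-212565243, + strand) and ASNS (chr7:97872449-97872496, - strand).
DDIT4: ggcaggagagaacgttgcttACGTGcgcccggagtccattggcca
CHAC1: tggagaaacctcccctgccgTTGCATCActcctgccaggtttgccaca
ATF3: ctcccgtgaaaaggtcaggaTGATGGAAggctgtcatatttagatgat
ASNS: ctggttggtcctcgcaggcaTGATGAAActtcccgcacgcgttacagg

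The next 5 belong to genes induced by low oxygen or of glycolysis that were higher in stress-high cells. They are BNIP3 (chr10:131982032-131982077, - strand), ANKRD37 (chr4:185396659-185396722, + strand), BHLHE40 (chr3:4979243-4979312, + strand), PGK1 (chrX:78104026-78104089, + strand) and LDHA (chr11:18394456-18394514, + strand).
BNIP3: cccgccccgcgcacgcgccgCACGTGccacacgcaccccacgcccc
ANKRD37: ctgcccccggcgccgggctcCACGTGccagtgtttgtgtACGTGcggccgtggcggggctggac
BHLHE40: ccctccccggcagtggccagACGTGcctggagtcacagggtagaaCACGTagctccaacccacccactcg
PGK1: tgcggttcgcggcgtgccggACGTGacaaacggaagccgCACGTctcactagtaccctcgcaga
LDHA: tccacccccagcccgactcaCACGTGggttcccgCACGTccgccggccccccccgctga

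The motifs were spread unevenly over the gene lists. TGATGNAA was in 3.67% of all 27305 promoters and in 1.64% of 8011 promoters of genes compared below. It was in 6 of 16 tRNA synthetase promoters and 3 of 9 promoters of amino acid synthesis genes. Other lists searched ranged from 0 of 19 hypoxia-inducible to 3 of 11 amino acid transporter promoters. Among these were 1 of 11 secreted and other ATF4-linked promoters and 2 of 13 promoters of the regulators. ACGTG was in 21.6% of all promoters and in 27.8% of those of compared genes. It was in 10 of 19 promoters of the hypoxia-inducible list and 8 of 17 of the glycolysis list. Over the other lists searched it ran from 0 of 11 secreted and other ATF4-linked promoters to 3 of 7 serine and one-carbon promoters. Among genes at least 2-fold higher in stress-high cells, 27 of 84 matched promoters (32.1%) held ACGTG and 3 (3.57%) held TGATGNAA. Of 33 matched promoters of genes at least 2-fold lower, 5 (15.15%) held ACGTG and 1 (3.03%) held TGATGNAA. The SESN2 and STC2 windows held neither motif. A match is a string of letters, not a measured binding site.

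Of 9992 genes with at least 10 CPM in either group, and without the 3 rule genes, 112 (1.12%) were at least 2-fold higher and 46 (0.46%) at least 2-fold lower in stress-high than in low cells. The median log2 ratio over all 9992 genes was -0.06, and 40.9% lay above 0. Most genes differed little between the groups, with 9 genes at least 4-fold higher and 2 at least 4-fold lower. The list values below are read beside these backgrounds. Stress-high cells were shallower, with a median of 19255.5 UMIs against 24231.5 in low cells, and had fewer genes, 5719 against 6431.5. Against low cells matched on total UMIs, 114 genes were higher and 45 lower, so that the counts were about as large without the difference in depth.

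STC2, the fourth marker, was higher in stress-high cells. It stood at 117 CPM, against 77.3 in intermediate and 38.2 in low cells, which is 3.06-fold (log2 1.61, 1.53 to 1.70) over low cells. In cells thinned to 10000 UMIs, 68.8% of 871 stress-high and 30.2% of 2726 low cells had an STC2 UMI. No cell type known to lack STC2 was available in this library, so no background share can be set beside these. When stress-high cells were chosen on one part of each cell's UMIs and measured on the other part (50% each), STC2 was 2.90-fold higher, DDIT4 7.49-fold, CHAC1 4.76-fold and SESN2 3.04-fold. These ratios come from UMIs that did not choose the cells, though the cells are the same. For the 3 rule genes a higher level follows from choosing cells on those genes, so their ratios are no support for the label.

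Regulators of the integrated stress response were in part higher. Of 14 compared, 3 were at least 2-fold higher, none was lower by that much, and the median log2 ratio was 0.47. DDIT3, a transcription factor of prolonged stress, was at 16.0 CPM in stress-high cells against 3.96 in low cells, 4.03-fold. ATF3, a stress-induced transcription factor, was at 48.6 against 16.3 CPM, 2.98-fold. JDP2, a related basic leucine zipper factor, was 2.01-fold higher. The following regulators were picked after their values were seen. ATF4 itself was at 199 against 136 CPM, 1.46-fold. TRIB3, a pseudokinase induced by ATF4 and DDIT3, stayed under the 10 CPM minimum at 9.39 against 1.81 CPM. The 4 eIF2 kinases differed by at most 0.16 on the log2 scale, with EIF2AK3 at 25.6 against 26.2 CPM and EIF2AK4 at 58.3 against 65.1 CPM. PPP1R15A, a feedback phosphatase subunit, was at 14.5 against 14.3 CPM.

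Secreted and other ATF4-linked genes gave the widest ratios of the stress response lists. Of 10 compared, 4 were at least 2-fold higher, and the median was 0.77. INHBE, which encodes the activin E subunit, was at 16.9 CPM against 3.06 in low cells, 5.50-fold (log2 2.46, 2.21 to 2.71). NIBAN1, a stress-induced protein, was 2.26-fold higher. VEGFA, the angiogenic growth factor, was at 53.8 against 20.4 CPM, 2.64-fold, and belongs to the hypoxia-inducible list as well. FGF21, a stress hormone under the minimum level, had 57 UMIs in stress-high cells and 16 in low cells, 3.04 against 0.21 CPM; it was chosen after its values were seen. The genes of this list did not move as one, since the autophagy receptor SQSTM1 was at 44.3 against 56.4 CPM.

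Enzymes of serine and one-carbon metabolism were higher by less than 2-fold. The median of 10 genes was 0.64, and 8 of the 10 lay above 0. PSAT1, an enzyme of serine synthesis, was at 529 CPM in stress-high and 287 in low cells, 1.85-fold. ALDH1L2, a mitochondrial folate enzyme, was 1.91-fold higher. Of 12 other amino acid synthesis genes, 4 were at least 2-fold higher and the median was 0.44. ASNS, asparagine synthetase, was at 10.5 against 2.91 CPM, 3.62-fold. GPT2, a mitochondrial alanine aminotransferase, was at 93.1 against 39.1 CPM, 2.38-fold. CTH, which makes cysteine, was 2.25-fold higher, and PCK2, the mitochondrial phosphoenolpyruvate carboxykinase, 2.20-fold.

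Uptake of amino acids and charging of tRNAs showed smaller ratios. Of 10 transporters compared, 1 was at least 2-fold higher and the median was 0.36. That gene was SLC7A11, the cystine importer, at 172 against 80.4 CPM, 2.13-fold. The 20 cytosolic tRNA synthetases held none at 2-fold, with 15 above 0 and a median of 0.24. CARS1, the cysteinyl-tRNA synthetase, was 1.78-fold and SARS1, the seryl-tRNA synthetase, 1.71-fold higher.

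Other stress programmes had medians between -0.12 and 0.25, beside -0.06 over all genes, apart from the heat shock genes given later. The 20 endoplasmic reticulum chaperone and unfolded protein genes had a median of -0.12, with 14 below 0. EDEM1, which helps to degrade misfolded glycoproteins, was 1 of them at 2.11-fold higher. Medians were -0.01 for 16 p53 targets, -0.01 for 10 genes of the oxidative stress list, -0.08 for 24 mTORC1 pathway genes and 0.13 for 13 glutathione enzymes. The medians of the p53 and oxidative stress lists changed sign under some alternatives, and that of the p53 list was 0.04 when scaled by the median ratio. PMAIP1, a pro-apoptotic BH3-only protein of the p53 list, was at 335 against 191 CPM, 1.76-fold. BBC3, another such protein, was at 16.6 against 11.2 CPM. The immediate early genes, which dissociation can induce, had a median of 0.25 over 10 genes with 7 above 0, and their part in the results was not tested.

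Under the rule, genes induced by low oxygen had a higher median than the stress response lists, an order that turned for some lists without DDIT4 in the score. All 21 compared were above 0, 15 of them at least 2-fold, and the median log2 ratio was 1.23. ADM, adrenomedullin, was at 11.0 CPM in stress-high cells and 1.82 in low cells, 6.04-fold. ANKRD37, a target of the hypoxia-inducible factor, was at 28.0 against 6.06 CPM, 4.61-fold. BHLHE40, a transcriptional repressor, was at 34.5 against 9.08 CPM, 3.80-fold. The abundant genes gave the same direction cell by cell. BNIP3, a receptor for the removal of mitochondria, had a median of 907 CPM over stress-high cells (522 to 1363, 10th to 90th percentile) and 308 (109 to 790) over low cells, so that the ranges overlapped. FAM162A, a hypoxia-inducible mitochondrial protein, was at 363 against 130 CPM, 2.79-fold. SLC2A1, the glucose transporter GLUT1, was at 278 against 124 CPM, and P4HA1, a collagen prolyl hydroxylase, at 170 against 76.1 CPM. EGLN1, the oxygen-sensing hydroxylase that marks the factor for destruction, was 2.54-fold higher.

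Glycolysis genes were higher as well, by less. All 17 compared were above 0, 4 of them at least 2-fold, with a median of 0.61. LDHA, the lactate dehydrogenase subunit, had a median of 1019 CPM over stress-high cells (598 to 1591) and 380 (151 to 856) over low cells. PGK1, phosphoglycerate kinase, was at 1048 against 465 CPM, 2.25-fold. SLC16A3, the lactate exporter MCT4, was at 38.4 against 10.4 CPM, 3.70-fold, and ALDOC, an aldolase, at 28.5 against 12.5 CPM. The hypoxia-inducible and glycolysis values were smaller when DDIT4 was left out of the score, which also left far fewer UMIs per cell to choose by. With a score from CHAC1 and SESN2 only, set at 194 CPM to take 894 cells, 421 cells were shared with the stress-high cells (47.1%) and the hypoxia-inducible median was 0.38 in place of 1.23. In those cells the secreted and other ATF4-linked genes had a median of 0.49 and the serine and one-carbon enzymes 0.40, both above the hypoxia-inducible list. The glycolysis median was 0.21, that of the regulators 0.34 and that of amino acid synthesis 0.37.

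The 17 cholesterol synthesis and uptake genes were all above 0 and none reached 2-fold, with a median of 0.57. STARD4, a sterol carrier, was 1.87-fold higher, at 67.2 against 35.9 CPM. MVD, an enzyme of the mevalonate pathway, was at 55.2 against 29.6 CPM, 1.86-fold. INSIG2, which retains the sterol sensor in the endoplasmic reticulum and is on the hypoxia-inducible list, was at 67.8 against 19.8 CPM, 3.42-fold. With the score from CHAC1 and SESN2 only, the cholesterol median was 0.09.

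**Figure D2:**
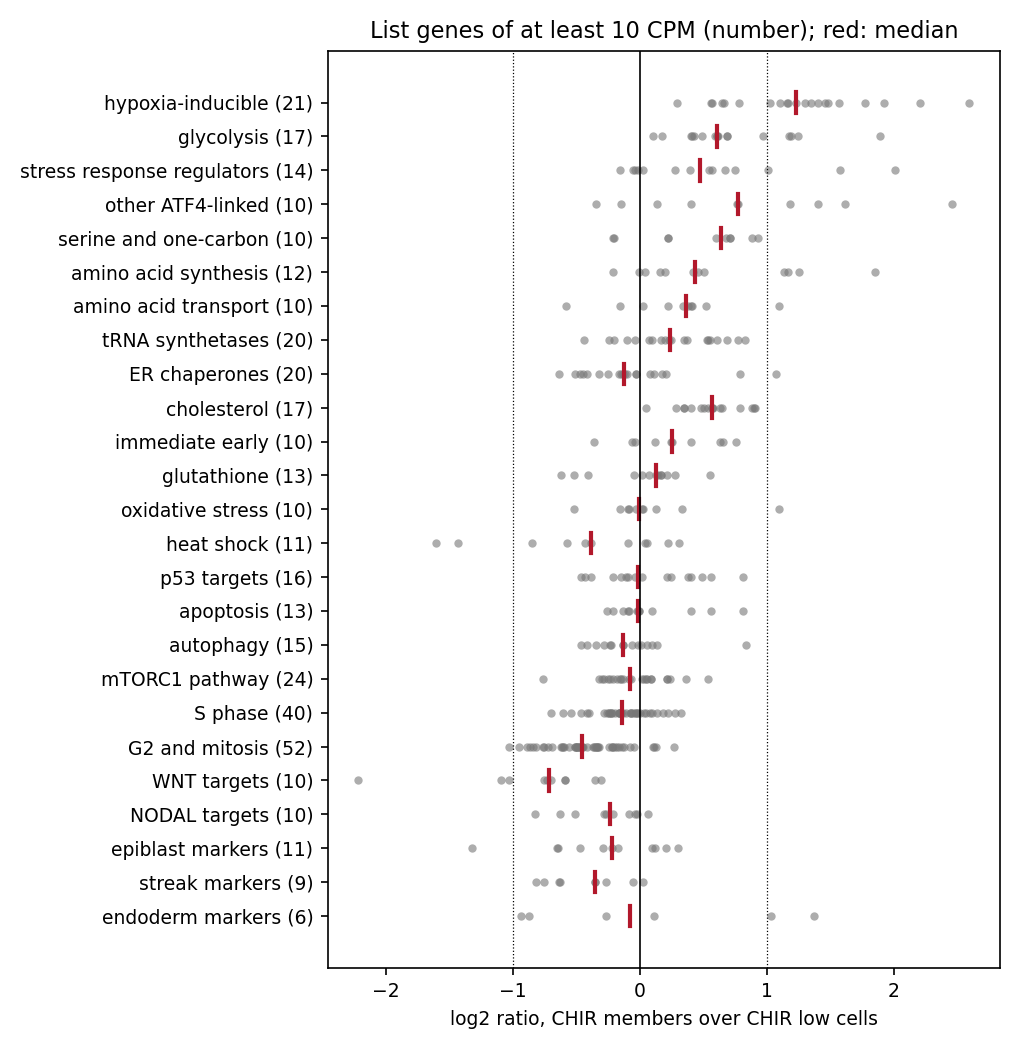
Each point is 1 gene with at least 10 CPM in either group, placed at its log2 ratio of CHIR stress-high cells (members) over CHIR low cells (x axis), by gene list with the number of genes in brackets; red bars are medians and dotted lines mark 2-fold. All 21 hypoxia-inducible, 17 glycolysis and 17 cholesterol genes lie right of 0, and all 10 WNT targets lie left of it.

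The 15 genes with the widest ratios, among genes of at least 20 CPM in either group, were led by G0S2. G0S2, an inhibitor of the lipase that breaks down stored triglyceride, was at 20.6 CPM in stress-high cells and 2.87 in low cells, 7.18-fold (log2 2.84, 2.60 to 3.09). KCTD16, an auxiliary subunit of GABA-B receptors, was at 28.2 against 5.34 CPM, 5.27-fold. PEX5L, a cytosolic partner of pacemaker channels, was at 33.2 against 7.48 CPM, 4.44-fold. Ratios between 3.32 and 3.98 were seen for PPFIA4, ONECUT1, ADCY8, C4orf47, LINC02649, DIRC3, TSC22D3 and DUSP6, beside ANKRD37, BHLHE40, SLC16A3 and INSIG2 given above. ONECUT1, a homeobox factor of liver and pancreas development, was at 23.5 against 5.96 CPM. TSC22D3, a leucine zipper protein known for its induction by glucocorticoids, was at 25.6 against 7.61 CPM. DUSP6, a phosphatase that acts as feedback on ERK, was at 39.3 against 11.8 CPM, 3.32-fold. For most of these genes the median cell of either group had no UMI, so the ratios come from sums over cells.

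WNT feedback and beta-catenin target genes were lower in stress-high cells, although all these cells had received the same GSK3 inhibitor. All 10 compared were below 0, 3 of them at least 2-fold, and the median was -0.71. LEF1, a transcription factor that partners beta-catenin, was at 4.59 CPM in stress-high cells and 21.3 in low cells, a log2 ratio of -2.22 (-2.55 to -1.90). AXIN2, a scaffold of the beta-catenin destruction complex and feedback inhibitor, was at 19.4 against 41.4 CPM. DKK1, a secreted WNT antagonist, was at 10.9 against 22.3 CPM. The other 9 of the 10 lowest genes of at least 20 CPM included IRX2, FST and LRFN5. IRX2, an Iroquois homeobox factor, was at 4.75 against 21.2 CPM. FST, follistatin, a secreted activin antagonist, was at 22.7 against 62.5 CPM, and LRFN5, a neuronal adhesion molecule, at 64.6 against 176 CPM. PLD5 was at 11.6 against 31.4 CPM, and 3 of the 10 were unnamed genes known by identifier only (ENSG00000254951, ENSG00000251567 and ENSG00000289158).

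Inducible heat shock genes completed the lowest group. HSPA1A was at 9.82 against 29.8 CPM and HSPA1B at 7.79 against 21.0 CPM. These 2 genes are near-identical copies of the chaperone HSP70, so that reads may be shared between them. Of 11 heat shock genes these 2 were at least 2-fold lower, and the median was -0.39. The abundant members did not share this direction as a group. At a minimum of 50 CPM the median was 0.04, and the summed level of the list was 7808 against 7649 CPM. In the CHIR+Activin library the same 2 genes had log2 ratios of -0.93 and -0.58, and the list's median was -0.06.

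Mitochondrially encoded RNA and mitotic genes were lower too. The median mitochondrial share of UMIs was 3.35% in stress-high cells (2.23 to 5.47, 10th to 90th percentile), 4.22% in intermediate and 5.39% (3.51 to 7.24) in low cells, all within the 15% filter. Of 13 mitochondrially encoded genes 12 were below 0, with a median of -0.58. MT-CO2, a subunit of cytochrome oxidase, was at 3282 against 6298 CPM. MT-ND6, the protein gene on the opposite strand of the mitochondrial genome to the others, was the one gene above 0, at 350 against 214 CPM. It was singled out after its value was seen, and the sources used here do not say whether counting used strand. Of 52 G2 and mitosis genes, 48 were below 0 and 1 was at least 2-fold lower, with a median of -0.45. That gene, KIF23, a kinesin of cytokinesis, was at 31.4 against 64.1 CPM. The 40 S phase genes had a median of -0.14, which was 0.04 with the score from CHAC1 and SESN2. What part cell cycle or mitochondrial share has in the other results was not tested. With low cells matched on total UMIs the hypoxia-inducible median, given below as 1.23, was 1.19, and with all cells thinned to 10000 UMIs it was 1.15.

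**Figure D3:**
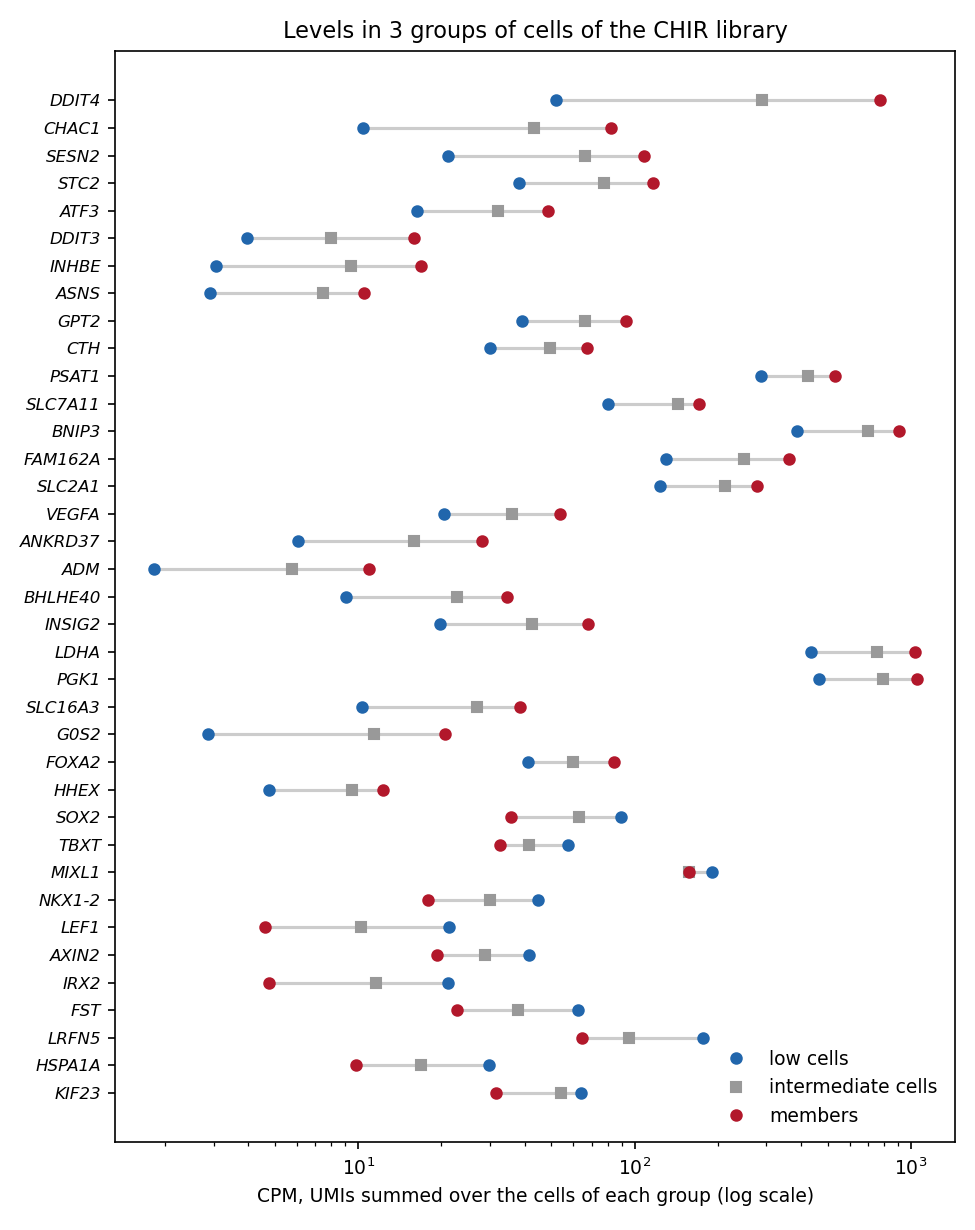
Level of a selection of the named genes (CPM, log axis) from UMIs summed over CHIR low cells (blue circles), intermediate cells (grey squares) and stress-high cells (red circles, members). For every gene drawn except MIXL1, the intermediate cells lie between the other groups, and the first 3 genes are those the rule used.

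Markers of cell identity differed less evenly. Of 11 epiblast markers compared, 1 was at least 2-fold lower and the median was -0.22. That gene was SOX2, a pluripotency and neural factor, at 35.8 CPM in stress-high cells, 63.1 in intermediate and 89.4 in low cells. POU5F1, a core pluripotency factor, was at 1089 against 1004 CPM. Primitive streak markers had a median of -0.35 over 9 genes with none at 2-fold. TBXT, the T-box factor brachyury, was at 32.7 against 57.5 CPM, and MIXL1, the reporter's gene, at 158 against 190 CPM. Of 3 caudal markers compared, 1 had a ratio above 0 and 2 were at least 2-fold lower. The lower ones were NKX1-2 at 17.9 against 44.7 CPM and CDX1 at 4.27 against 10.2 CPM. Of the 10 NODAL target genes none reached 2-fold and the median was -0.24. LEFTY2, a NODAL antagonist with the near-identical copy LEFTY1, was at 51.1 against 90.7 CPM.

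Of 6 definitive endoderm markers compared, 2 were at least 2-fold higher and the median was -0.08. FOXA2, a forkhead factor of endoderm and axial tissue, was at 84.0 CPM in stress-high cells and 41.2 in low cells, 2.04-fold. HHEX, a homeobox factor of anterior endoderm, was at 12.3 against 4.75 CPM, 2.59-fold. With the score from CHAC1 and SESN2 only, no endoderm marker compared was at least 2-fold higher and the median was -0.38. Against all kept cells under 700 CPM none was at least 2-fold higher either. SOX17, the defining endoderm factor, had 0 UMIs in the 894 stress-high cells and 23 in low cells, and CER1, a secreted antagonist, was at 55.2 against 66.3 CPM. Thinned to 10000 UMIs, 44.3% of stress-high cells (41.0 to 47.7) and 27.3% of low cells (25.6 to 29.0) had a FOXA2 UMI, and 29.4% (26.4 to 32.5) against 49.3% (47.4 to 51.2) had a SOX2 UMI. At full depth 499 stress-high cells (55.8%) had FOXA2 without SOX17, against 1236 low cells (43.8%).

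Markers of mesoderm, amnion, neural ectoderm and node were near 0. No gene of the mesoderm, amnion, neural or node lists reached 10 CPM in either group. Their summed levels in stress-high and low cells were 5.34 and 8.58 CPM for 10 mesoderm markers, 1.87 and 3.00 for 8 amnion markers, and 1.44 and 2.19 for 8 neural markers. The 6 node markers summed to 5.71 against 1.69 CPM. MSGN1 and FOXC1 of the mesoderm list, TFAP2B and WNT6 of the amnion list, SOX1, SIX3 and HES5 of the neural list and TAL1 and CDH5 of the haemato-endothelial list were at 0 in stress-high cells. The summed level of the 7 germ cell markers was 66.8 against 90.7 CPM, most of it from PDPN at 32.1 against 42.6 CPM and KIT at 19.0 against 26.8 CPM. That of the 8 haemato-endothelial markers was 55.8 against 70.8 CPM, most of it from KDR at 25.5 against 43.7 CPM and EGFL7 at 21.2 against 15.8 CPM.

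Over the whole range of the score the lists moved in small steps. The summed level of the hypoxia-inducible list was 1415, 2044, 2486, 2950, 3305 and 3709 CPM in cells with scores of 0 to 100, 100 to 200, 200 to 400, 400 to 700, 700 to 1000 and 1000 or more CPM. LEF1 went from 24.1 CPM in the first of these bins through 11.6 in the third to 4.12 in the last. FOXA2 went from 39.2 through 56.3 to 95.3 CPM, and SOX2 from 90.7 through 70.4 to 31.0 CPM. Not all lists moved in a single direction. G2 and mitosis genes stood at 6030, 6213, 6053, 5716, 5068 and 4544 CPM. The endoderm list summed to 178 CPM in the first bin, 138 in the second and 201 in the last. The heat shock and endoplasmic reticulum chaperone lists were lowest in the third bin. The median mitochondrial share over the same 6 bins was 5.51, 5.14, 4.45, 3.97, 3.57 and 3.13%. No step at 700 CPM sets the stress-high cells apart in these values.

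**Figure D4:**
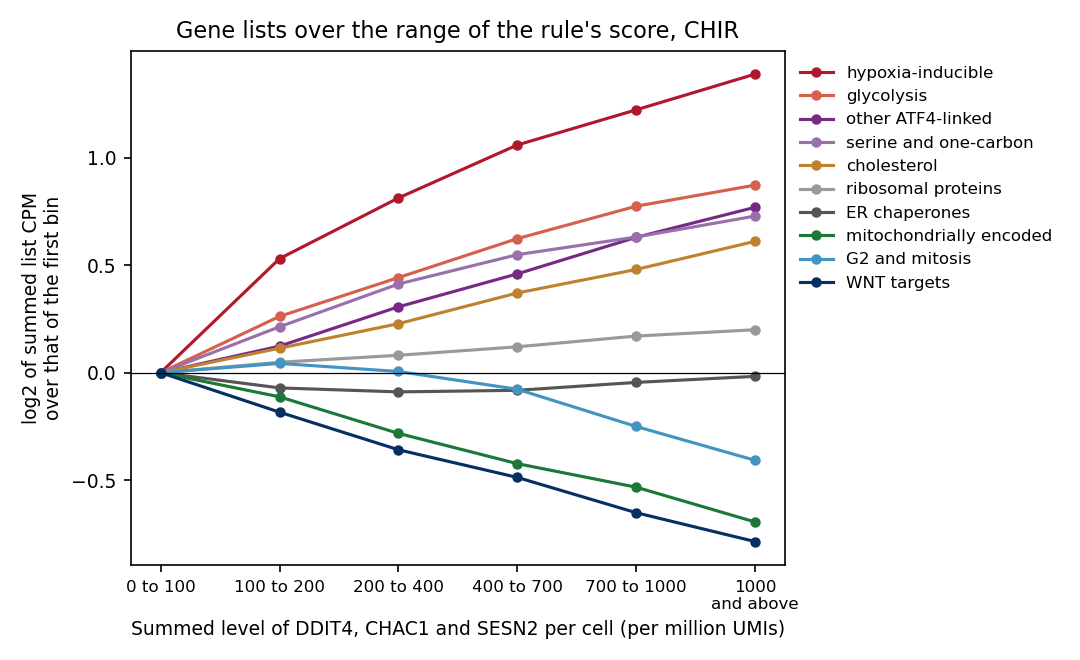
Log2 of the summed CPM of 10 gene lists in each bin of the rule's score, over that in the bin of 0 to 100 CPM, for kept CHIR cells (1731, 1091, 1803, 1565, 558 and 336 cells from left to right). Among the 10 lists drawn, the hypoxia-inducible list is highest and the WNT target list lowest in every bin after the first, with no jump at 700 CPM.

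The stress-high cells were then compared among themselves. Of the 894 cells, 313 (35.0%) had CHAC1 at 100 CPM or more. Among 9841 genes compared between these and the other 581, none was at least 2-fold higher and 6 were at least 2-fold lower. The median stress-high cell had 1 CHAC1 UMI, so the split rests on few counts per cell. Few differences between its sides therefore cannot show that the cells are alike. Median depth was 18946 against 19705 UMIs, and the median mitochondrial share 3.50% against 3.26%. The summed hypoxia-inducible level was 3250 against 3538 CPM. Over 871 stress-high cells thinned to 10000 UMIs, the correlation of the hypoxia-inducible and glycolysis sums was 0.63 (Pearson's r), and that of the hypoxia-inducible and amino acid synthesis sums -0.10. Over all 6892 thinned CHIR cells these were 0.72 and 0.21. Stress-high cells were chosen by a sum, so a cell with more CHAC1 needed less DDIT4 to pass. DDIT4 was at 726 CPM in the cells with CHAC1 at 100 CPM or more and at 796 CPM in the others. Such a choice can itself move the values of the split and the correlations, so neither can show separate programmes. The cells come from 1 library, and the values are descriptions.

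Genes whose level followed the score most closely over the 6892 thinned cells were BNIP3 (Pearson's r of 0.48), PGK1 (0.46), LDHA (0.46) and FAM162A (0.38). They were followed by ENO1 (0.35), an enzyme of glycolysis, and PSAT1 (0.34). TUBB2B, EEF1A1, C4orf3 and GAS5 had values between 0.32 and 0.33. GAS5 is a noncoding RNA that hosts small nucleolar RNAs and accumulates when translation slows. The lowest were MT-CO2 (-0.41), MT-ND2 (-0.37) and MT-CO3 (-0.37). Counts in 1 cell are sparse and all genes share the cell's depth and library.

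The same rule in the CHIR+Activin library gave values that the choice of CHIR cells did not use. There 265 cells passed and 4320 were under 200 CPM. In the passing cells, 68 of the 9870 compared genes (0.689%) reached 2-fold higher and 113 (1.14%) 2-fold lower. Of the 112 genes higher in CHIR, 97 could be compared and 95 had the same direction, 47 of them at least 2-fold higher (48.5% of the 97, and 69.1% of the 68). Of the 46 lower genes 42 could be compared and all 42 had the same direction, 18 of them at least 2-fold (42.9% of the 42, and 15.9% of the 113). Over these genes the median in CHIR+Activin was 0.98 against 1.29 in CHIR for the higher genes, and -0.93 against -1.12 for the lower ones. The genes were chosen by their ratios in CHIR, and such a choice alone makes ratios narrower in another library. The medians therefore cannot show that ratios are narrower in CHIR+Activin. The 2 libraries share no cells, yet each is 1 library, so these differences were not tested.

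By pathway, stress and oxygen genes were higher in the passing cells of both libraries, with some ratios close and others narrower in CHIR+Activin. STC2 was at 109 CPM in passing cells and 34.0 in low cells of CHIR+Activin, 3.20-fold. INHBE was 5.45-fold, DDIT3 3.61-fold, ATF3 2.74-fold and GPT2 2.37-fold higher. The hypoxia-inducible median was 0.90, with 8 of 20 genes at least 2-fold higher, against 1.23 and 15 of 21 in CHIR. Among genes named for their ratios in CHIR, ADM was 3.55-fold higher against 6.04-fold there, and ANKRD37 2.98-fold against 4.61-fold. BHLHE40 was 2.52-fold against 3.80-fold and SLC16A3 1.96-fold against 3.70-fold higher. Amino acid synthesis genes had a median of 0.22 with 1 of 11 at least 2-fold higher, against 0.44 and 4 of 12 in CHIR. ASNS was 3.06-fold higher in CHIR+Activin but lay under the minimum level, at 5.92 against 1.93 CPM. CTH at 1.88-fold and PCK2 at 1.96-fold lay just under the cutoff there. LDHA was 1.92-fold, PGK1 1.83-fold and BNIP3 1.95-fold higher. The WNT target median was -0.68 and that of mitosis genes -0.37. The mitochondrial share was again lower, 3.53% against 4.97%, and depth 15065 against 17592.5 UMIs.

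The streak and endoderm lists had lower medians in CHIR+Activin. Of 10 streak markers compared there, 6 were at least 2-fold lower and the median was -1.13. Of 6 endoderm markers, 4 were at least 2-fold lower and the median was -1.52. The medians of the 2 libraries are not over the same genes. HHEX was compared only in CHIR and SOX17 only in CHIR+Activin, and 9 streak markers were compared in CHIR. CER1 was at 62.5 CPM in passing and 221 in low cells of that library, and SOX17 at 0.711 against 12.6 CPM. MIXL1 was at 105 against 204 CPM. FOXA2 was at 44.5 against 37.8 CPM, 1.18-fold, and SOX2 at 69.9 against 87.7 CPM. The 12 epiblast markers compared there had a median of 0.20 with none at 2-fold, against -0.22 over 11 in CHIR. Low cells of CHIR+Activin held more SOX17 and CER1 RNA than those of CHIR, where SOX17 was at 0.301 and CER1 at 66.3 CPM. The Activin dose and the CHIR99021 dose both differ between these arms, and their parts cannot be told apart.

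**Figure D5:**
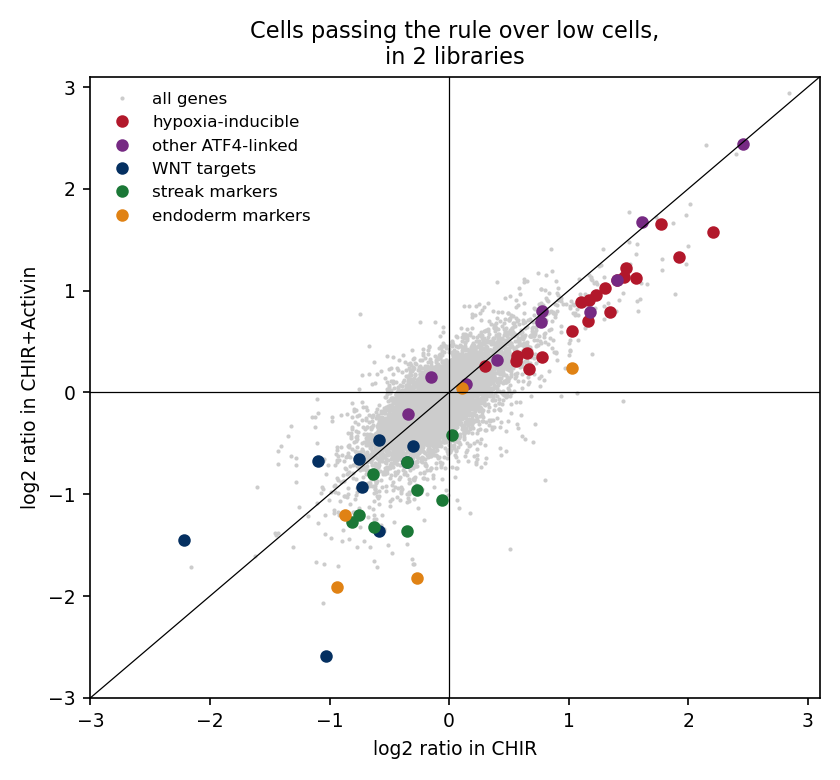
Log2 ratio of cells passing the rule over low cells for each gene, in CHIR (x axis) and CHIR+Activin (y axis), over 9704 genes compared in both; coloured points are 5 gene lists and the diagonal marks equal ratios. Hypoxia-inducible and ATF4-linked genes with high ratios lie in the upper right, most streak and endoderm markers lie under the diagonal, and Pearson's r across genes, which are not replicates, is 0.77.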

How the data were processed

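UMI counts per gene and cell were read from 3 deposited matrices, which per the file headers the authors produced in Cell Ranger 8.0.1. The submitters' processing notes also name Seurat. The sources used here give no genome build, annotation release or strand setting. Genes were 38606 IDs, 43 of which share 21 symbols. CHIR and CHIR+Activin held called cells; BMP4 held 1935344 barcodes, of which the 9440 with at least 3739 UMIs (10% of the 99th percentile of the top 10000) were called. Cells under 2000 genes or over 15% mitochondrial UMIs were removed (39 in BMP4, 622 in CHIR and 515 in CHIR+Activin).

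UMIs were summed per group of cells and scaled to CPM. Log2 ratios carry exact conditional binomial intervals, and shares exact Clopper-Pearson intervals. Genes of at least 10 CPM in either group were compared, and at least 2-fold apart is a rule of size, not a test. Doublets were scored with Scrublet in scanpy 1.11.5. Its automatic threshold marked 0 cells in each library and so did not work; doublets were kept, and removal of the highest 6% was tried as an alternative. Other alternatives were other cutoffs and scores, thinning, stricter filters, other comparison cells, matching on depth, other scaling and other minimum levels.

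Named genes were the rule genes and STC2, the 15 highest and 10 lowest ratios at 20 CPM or more, the genes at least 2-fold apart in each of 32 lists (otherwise the 2 farthest from 0), the most abundant marker of a list, and the 10 genes most correlated with the score. Genes outside this rule were chosen after their values were seen. The cells and the gene lists were chosen with earlier results of these data known.

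The comparison of CHIR stress-high with low cells was tested on simulated data of 9753 genes. Simulated cells were drawn from a fixed profile for each group with counting error only, without intermediate cells or other spread between cells. The outcome checks the calculation and cannot show how the rule acts on the real score, which has no gap at the cutoff. The rule picked 88.4% of simulated stress-high cells and 0 low cells, found 100% of genes changed 4-fold and 99% of those changed 2.5-fold, called 0 of 9553 unchanged genes, and 95.0% of intervals held the simulated ratio. Stress-high cells held 18740144 UMIs in all and low cells 76347409, which put 3 counts at 0.16 and 0.0393 CPM. Python 3.11.15, numpy 2.4.6, scipy 1.17.1 and pandas 2.3.3 were used.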

Additional observations from a re-analysis of the deposited data

Results flagged for a closer look

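HHEX, a homeobox gene of anterior endoderm, ran in opposite directions in the 2 libraries treated with CHIR99021. In CHIR its log2 ratio of stress-high over low cells was 1.37 (1.13 to 1.62). In CHIR+Activin, where 18 UMIs were counted in the cells passing the rule, it was -0.77 (-1.53 to -0.10), at 4.26 against 7.26 CPM. The difference between the libraries was not tested, since each treatment is 1 library.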

How the results depend on the processing

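No paired analysis was possible because each treatment is 1 library with no replicate. The order CHIR, CHIR+Activin, BMP4 in the share of cells passing held under every alternative run. That share in CHIR was 12.6%, and became 25.4% at a cutoff of 500 CPM, 4.74% at 1000, 7.24% with DDIT4 alone and 16.7% after thinning. In CHIR+Activin 3.85% became 9.93%, 0.887%, 1.67% and 5.62% under the same settings, and 5.92% with the score from CHAC1 and SESN2. In BMP4 0.0532% became 0.308% at 500 and 0.681% with CHAC1 and SESN2. Genes at least 2-fold higher, 112, became 20 with CHAC1 and SESN2, 19 against all kept cells under 700 CPM, 31 at a minimum of 50 CPM and 1038 with no minimum beyond 10 UMIs. Genes at least 2-fold lower, 46, became 21 at a cutoff of 500, 103 at 1000, 6 with CHAC1 and SESN2, 30 after thinning, 17 against all cells under 700, 12 at 50 CPM and 1288 with no minimum. Lists with a median of at least 0.5, 5 in all, became 0 with CHAC1 and SESN2 and 1 against all cells under 700. Lists with a median of at most -0.5 were 2 in all, the WNT target and caudal lists, and became 0 with CHAC1 and SESN2. They became 1 with each of DDIT4 alone, the split of UMIs, all cells under 700, scaling by the median ratio, and 50 CPM. In all these settings the caudal list had fewer than 3 genes compared and so no median. At 50 CPM the WNT target list had none either, and the list counted was that of streak markers at -0.63. The streak median, -0.35 under the main settings, was -0.54 after thinning. Genes at least 2-fold higher in both libraries, 47, became 11 with CHAC1 and SESN2; those lower in both, 18, became 9 at 500, 53 at 1000, 2 with CHAC1 and SESN2 and 11 with the split of UMIs. HHEX went from 1.37 to -0.00347 with CHAC1 and SESN2. The causes of these moves were not tested, beyond that fewer or more genes and cells enter by construction. Of 896 values for 64 named genes at least 2-fold apart under 14 alternatives, 895 kept their direction and 759 stayed past 2-fold. Removing the highest 6% of doublet scores took 21 of the 894 stress-high cells (2.35%) and 4.08% of low cells. Depth limits genes near 10 CPM, where stress-high cells hold under 200 UMIs in all, and with 1 library per treatment no difference between treatments has a replicate check.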

Other observations

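The 5 BMP4 cells that passed the rule were too few for a comparison. They had 4451 to 12288 UMIs and scores of 767 to 1709 CPM, and none had a CHAC1 UMI. The highest-scoring had 20 DDIT4 UMIs and 56 UMIs of HMOX1, the haem oxygenase induced by oxidative stress, while the other 4 had 1 HMOX1 UMI in all. Each of the 5 rests on few counts.

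NOG, a secreted BMP antagonist on the node list, had 82 UMIs in stress-high cells and 44 in low cells of CHIR, 4.38 against 0.576 CPM, a log2 ratio of 2.92 (2.38 to 3.49). It lay under the 10 CPM minimum and entered none of the counts above. The other 5 node markers summed to low levels, with SHH at 0.267 against 0.380 CPM. In CHIR+Activin NOG was at 1.42 against 0.540 CPM.

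Ribosomal protein genes had a median log2 ratio of 0.16 in CHIR, with 74 of 78 compared above 0 and none at 2-fold. Their summed level was 136831 CPM in cells with a score of 0 to 100 CPM and 157160 CPM in cells at 1000 or more. The autophagy list had a median of -0.13 over 15 genes and the apoptosis list -0.01 over 13.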
